A study of Mus musculus with 13 samples.

Results

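The elastic fibre genes examined here are elastin and 9 partners of its assembly and cross-linking, namely Eln, Fbn1, Fbn2, Fbln5, Efemp2, Lox, Loxl1, Mfap4, Ltbp4 and Emilin1. They were taken by gene name from a count table of 54532 genes, where each name was found, and all 10 were among the 15811 genes that passed the filter on low counts. RNA was sequenced from the aortas of 13 ApoE-/- mice, which lack apolipoprotein E and were infused with angiotensin II (AngII) from a pump under the skin to induce abdominal aortic aneurysm. Per the study's methods, the mice were 10 weeks old and AngII ran at 1000 ng/kg/min for up to 28 days. The 6 Ad-sham mice received an empty adenovirus, and the 7 Ad-FAM3A mice an adenovirus carrying mouse Fam3a with a FLAG tag behind the EF1A promoter, both by repeated tail vein injection. All 13 mice thus carried the Apoe deletion, the AngII infusion and an adenovirus, and no aorta from an untreated mouse was analysed here. The comparison asked whether delivery of FAM3A, a cytokine-like secreted protein, was accompanied by a change in these transcripts.

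Elastic fibres give the aorta its recoil. Smooth muscle cells and fibroblasts secrete tropoelastin, the product of Eln, which gathers into globules and is laid onto a scaffold of fibrillin microfibrils. Fibulins and latent TGF-beta binding proteins carry the globules to the scaffold, and lysyl oxidases cross-link them into insoluble elastin. Loss and fragmentation of the elastic lamellae is a hallmark of aortic aneurysm. The level of a transcript does not give the amount of fibre in the wall, which turns over slowly.

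Total counts on genes were 15588507 to 19797407 in the Ad-sham aortas and 14481179 to 16576977 in the Ad-FAM3A aortas, and a count of 3 equalled 0.140 to 0.221 CPM (counts scaled to library size with TMM factors from edgeR), which covers counting error only. Each library is a separate aorta. All 10 smooth muscle markers were detected, as the label aorta implies. The delivered gene, Fam3a, stood at 24.4 ± 4.27 CPM (mean ± SD) over the 6 Ad-sham and 23.97 ± 4.64 CPM over the 7 Ad-FAM3A aortas. Its transcript was therefore not measurably raised in aortas labelled Ad-FAM3A, and every direction below refers to the labels. Some libraries stood apart. Ad-sham1, Ad-sham3 and Ad-FAM3A6 had the highest levels of cardiac muscle markers (summed 208, 62.8 and 161 CPM), against 6.49 to 27.97 CPM in the other 10 aortas. Ad-FAM3A6 and Ad-FAM3A7 had summed B-cell markers of 15684 and 4946 CPM, against at most 355.8 CPM elsewhere.

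The promoters of 5 of the 10 genes (Fbn1, Fbln5, Efemp2, Ltbp4 and Emilin1) were matched in the RefSeq table for GRCm38.p6, each spanning 250 bases before to 50 after a start site. The 3 windows printed here are those whose start lay closest to the gene start in the deposited table, within 27 to 80 bases, and they belong to the 3 adaptor genes of elastin assembly, whose levels are compared below. Capitals mark the short motifs that were found on either strand, GGGCGG (the GC box, read as CCGCCC on the other strand) and CAGAC (a Smad-type element, read as GTCTG on the other strand). Fbln5 is shown from chr12:101819070-101819369 on the minus strand, Efemp2 from chr19:5473696-5473995 on the plus strand and Ltbp4 from chr7:27337563-27337862 on the minus strand, each 5′ to 3′.
Fbln5: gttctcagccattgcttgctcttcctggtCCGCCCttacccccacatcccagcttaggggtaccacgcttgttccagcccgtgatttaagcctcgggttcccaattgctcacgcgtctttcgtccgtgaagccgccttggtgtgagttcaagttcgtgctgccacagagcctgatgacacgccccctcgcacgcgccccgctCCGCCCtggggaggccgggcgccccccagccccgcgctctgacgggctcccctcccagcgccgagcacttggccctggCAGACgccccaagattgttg
Efemp2: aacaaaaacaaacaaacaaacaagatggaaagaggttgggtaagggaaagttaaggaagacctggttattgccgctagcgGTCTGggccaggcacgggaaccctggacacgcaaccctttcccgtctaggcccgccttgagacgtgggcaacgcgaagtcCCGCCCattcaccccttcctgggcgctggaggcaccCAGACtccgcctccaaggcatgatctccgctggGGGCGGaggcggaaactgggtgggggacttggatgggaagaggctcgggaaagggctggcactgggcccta
Ltbp4: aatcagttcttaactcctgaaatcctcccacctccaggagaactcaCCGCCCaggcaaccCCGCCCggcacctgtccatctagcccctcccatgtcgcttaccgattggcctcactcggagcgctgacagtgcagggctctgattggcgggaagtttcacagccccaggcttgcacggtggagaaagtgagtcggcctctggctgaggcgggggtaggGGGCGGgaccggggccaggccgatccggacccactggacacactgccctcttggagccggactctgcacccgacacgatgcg
The window of Fbln5 held 2 GC boxes and 1 CAGAC, that of Efemp2 held 2 of each, and that of Ltbp4 held 3 GC boxes and no CAGAC. RefSeq lists 2 promoters for Fbln5 and 3 each for Efemp2 and Ltbp4, and these counts cover 1 window per gene. Of the other matched windows, Fbn1 had 1 GC box and Emilin1 had 2 CAGAC. Among all 32851 promoters of the table, 35.7% held the GC box and 49.6% held CAGAC, so neither is particular to these genes. The letters TATAAA (in 13.6% of all promoters), TGANTCA (7.81%) and the CArG box of serum response factor (1.63%) were not in any of the 5 windows. No motif shared bases with another, and a match describes letters, not a site that is used.

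Between the virus groups, none of the 10 elastic fibre genes differed by more than the spread between aortas. In edgeR's quasi-likelihood test, adjusted by Benjamini-Hochberg over the 15811 genes, 0 of the 10 were called at an adjusted p under 0.05, where 0% of all genes were called. At an unadjusted p under 0.05 there were 0 of 10, against 5.91% of all genes (934). The estimates were above 0 for 8 of the 10 genes in the aortas labelled Ad-FAM3A, where 50.4% of all genes lay above 0. That count was 4 without Ad-sham1, 4 without Ad-sham3 and 5 without Ad-FAM3A4. The median log2 fold change of the 10 genes was 0.065 (0.00319 over all genes tested), and the adjusted p-values of the quasi-likelihood test ran from 0.830 to 0.987. The 2 groups overlapped for 10 of 10 genes. The share of all genes with overlapping groups was not counted, so this overlap is a description only.

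Elastin itself (Eln, chromosome 5, 134702593 to 134747323, minus strand, GRCm38) was the most abundant of these transcripts. Its level ran from 968 to 3962 CPM in Ad-sham aortas (median 2172) and from 792 to 3738 CPM in aortas labelled Ad-FAM3A (median 2956). The groups overlapped over nearly their whole range, although 6 of the 7 aortas labelled Ad-FAM3A exceeded the Ad-sham median, and the remaining one, Ad-FAM3A6, was the lowest of all 13. The means were 2327 ± 1078 CPM (SD, n = 6) and 2867 ± 994 CPM (SD, n = 7). The log2 fold change was 0.30 (SE 0.37, 95% interval -0.49 to 1.09), and mean log2 CPM differed by 0.31 (two-sided exact permutation test, p = 0.469). In bulk tissue, fewer cells of a type and less RNA per cell cannot be told apart, here and in every comparison that follows.

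The fibrillins form the microfibril scaffold. Fbn1 (chromosome 2, 125300594 to 125507993), the fibrillin of adult vessels and the gene mutated in Marfan syndrome, had 235 to 612 CPM in Ad-sham aortas (median 417) and 183 to 623 CPM in aortas labelled Ad-FAM3A (median 421). The medians nearly coincided and the groups overlapped. Its log2 fold change was -0.024 (SE 0.30, 95% interval -0.67 to 0.62), and the means of its log2 CPM differed by -0.083 (two-sided exact permutation test, p = 0.81). Fbn2 (chromosome 18, 58008623 to 58209926), which is used chiefly in embryonic elastic tissue, was close to the limit of detection, with 0 to 40 counts per aorta and a count of 0 in Ad-sham2, Ad-FAM3A2 and Ad-FAM3A4. It reached 1.41 CPM in Ad-sham and 2.32 CPM in Ad-FAM3A aortas, the highest value being that of Ad-FAM3A7. The log2 fold change of Fbn2 from edgeR was 0.26 with a 95% interval of -1.72 to 2.24. The difference of its mean log2 CPM had the other sign, at -0.43 (two-sided exact permutation test, p = 0.795), so the data give no direction, and a change of several-fold in either direction was not detectable at this depth.

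The adaptors that bring elastin to the microfibrils were led by Ltbp4, a latent TGF-beta binding protein that pairs with fibulin-5. Ltbp4 (chromosome 7, 27305136 to 27337692) ran from 496 to 1660 CPM in Ad-sham aortas (median 1228) and from 383 to 2072 CPM in aortas labelled Ad-FAM3A (median 887). It had both its lowest and its highest value in the group labelled Ad-FAM3A, and its log2 fold change from edgeR was 0.047 with a 95% interval of -0.78 to 0.87. The difference of its mean log2 CPM had the other sign, at -0.051 (two-sided exact permutation test, p = 0.904), as did that of the medians. Fbln5 (chromosome 12, 101746565 to 101819055), the fibulin that binds tropoelastin to cells and microfibrils, had 172 to 827 CPM in Ad-sham (median 477) and 197 to 911 CPM in Ad-FAM3A aortas (median 699). Here 6 of 7 aortas labelled Ad-FAM3A exceeded the Ad-sham median, but the lowest values of the 2 groups were close to each other. The log2 fold change of Fbln5 was 0.45 (SE 0.37, 95% interval -0.34 to 1.25), and its mean log2 CPM was higher by 0.50 (two-sided exact permutation test, p = 0.279). Efemp2 (chromosome 19, 5473973 to 5481853) encodes fibulin-4, which couples lysyl oxidase to elastin. It had 38.4 to 105 CPM in Ad-sham (median 60.9) and 22.7 to 91.2 CPM in Ad-FAM3A aortas (median 73.6). The values of the groups intermingled, at an edgeR log2 fold change of 0.052 with a 95% interval of -0.62 to 0.73 and a difference of mean log2 CPM of 0.028 (two-sided exact permutation test, p = 0.943).

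Lysyl oxidases oxidise lysines of elastin and collagen so that the chains cross-link. Lox (chromosome 18, 52516069 to 52529867) ranged from 120 to 613 CPM in Ad-sham aortas (median 366) and from 182 to 703 CPM in aortas labelled Ad-FAM3A (median 456). In 6 of the 7 aortas labelled Ad-FAM3A it was above the Ad-sham median, and again Ad-FAM3A6 was the exception. The log2 fold change of 0.46 was the largest in size of the 10 genes (SE 0.36, 95% interval -0.32 to 1.24), and the group means of log2 CPM were 0.54 apart (two-sided exact permutation test, p = 0.215). Loxl1 (chromosome 9, 58287738 to 58313186), the lysyl oxidase homologue needed to renew elastic fibres in adult tissue, exceeded the Ad-sham median in 5 of 7 aortas labelled Ad-FAM3A. Its levels were 136 to 402 CPM in Ad-sham (median 249) and 83.6 to 395 CPM in Ad-FAM3A aortas (median 285), a log2 fold change of 0.054 with a 95% interval of -0.66 to 0.76 and a difference of 0.032 in mean log2 CPM (two-sided exact permutation test, p = 0.938).

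Of the microfibril-associated glycoproteins, Mfap4 (chromosome 11, 61485431 to 61488900), which binds both elastin and fibrillin, had 104 to 473 CPM in Ad-sham (median 259) and 62.1 to 492.8 CPM in Ad-FAM3A aortas (median 306). The highest value, in Ad-FAM3A2, was 7.94 times the lowest, in Ad-FAM3A6, the widest range of the 9 abundant genes, the narrowest being 3.40-fold for Fbn1. Its log2 fold change was 0.077 with a 95% interval of -0.81 to 0.97, against 0.055 for the difference of mean log2 CPM (two-sided exact permutation test, p = 0.928). Emilin1 (chromosome 5, 30913402 to 30921277), which lies at the interface of elastin and microfibrils and restrains TGF-beta processing, had 39.5 to 170 CPM in Ad-sham (median 107) and 42.7 to 116 CPM in Ad-FAM3A aortas (median 98.9). The Ad-sham values enclosed those of the group labelled Ad-FAM3A on both sides, and the log2 fold change was -0.21 with a 95% interval of -0.86 to 0.44. The mean log2 CPM of Emilin1 differed by -0.12 (two-sided exact permutation test, p = 0.743).

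**Figure D1:**
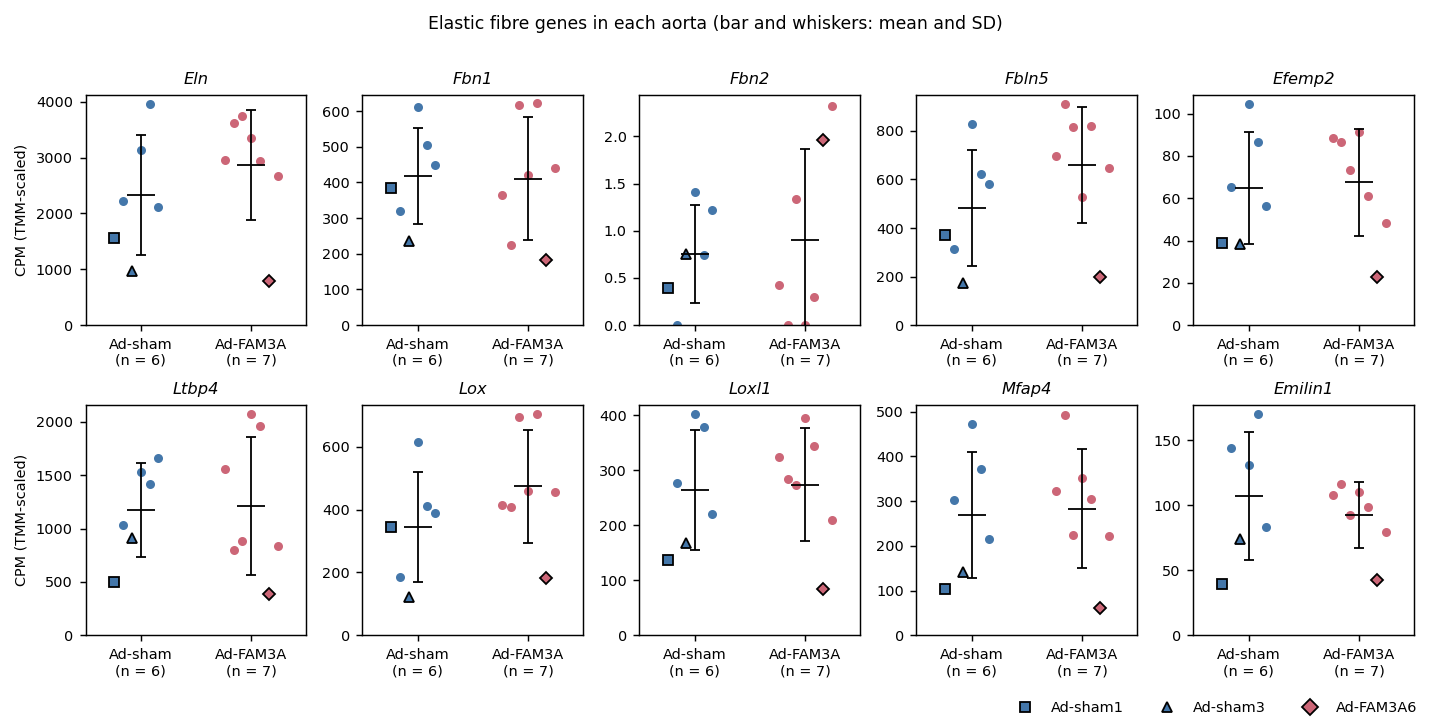
Each panel plots 1 elastic fibre gene, with a point per aorta on a linear axis in CPM from 0, the 6 Ad-sham aortas at the left and the 7 Ad-FAM3A aortas at the right, and the mean and SD in black. The groups overlap in every panel, and the diamond, Ad-FAM3A6, lies at or near the bottom of its group in every panel but that of Fbn2.

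The annotation touches some of these values, since whether reads were counted by strand is not given in the sources used here. In GENCODE vM21, Mfap4 shares 89 exonic bases with Mapk7 on the opposite strand and Efemp2 shares 173 with Mus81, genes that had at most 505 and 305 counts in an aorta. Eln shares 267 bases with Gm30003 and Fbn1 shares 2442 with Gm9913, which had at most 4 and 3 counts. Fbn2 shares 129 bases with Gm26507, which had at most 1 count, and Lox shares 30 with AC161119.1, for which no count was listed. Fbln5, Loxl1, Ltbp4 and Emilin1 share none. The summed exon length in GENCODE vM21 equalled the deposited gene length for 7 of the 10 genes, and was 3788 against 2648 bases for Efemp2, 13215 against 10480 for Fbn2 and 4778 against 4810 for Lox.

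The elastic fibre genes varied more between aortas of a group than most genes did. The within-group SD of log2 CPM had a median of 0.753 over the 10 genes, from 0.60 for Fbn1 to 2.40 for Fbn2, whereas its median was 0.465 over all genes tested and 0.364 over the 3149 genes at least as abundant as Efemp2. The low values came from few aortas. Among the 9 abundant genes (all but Fbn2), Ad-FAM3A6 was lowest for 6 and among the 3 lowest for 9, Ad-sham3 was among the 3 lowest for 8, and Ad-sham1 for 6. At the other end, Ad-sham4 was among the 3 highest for 7. The 3 low aortas are those with the highest cardiac muscle markers. They also had the lowest summed smooth muscle markers, at 2615 CPM in Ad-FAM3A6, 3428 CPM in Ad-sham1 and 6092 CPM in Ad-sham3. The next lowest was Ad-FAM3A7, at 6422 CPM. Ad-FAM3A6 further had the lowest summed fibroblast (2570 CPM) and endothelial markers (977 CPM) of the 13. The part of these other transcripts in the low elastic fibre levels was not tested. Without Ad-FAM3A6 the log2 fold changes were 0.47 for Eln, 0.62 for Fbln5 and 0.60 for Lox, and the smallest adjusted p by edgeR was 0.852. Without the B-cell-rich Ad-FAM3A6 and Ad-FAM3A7 together they were 0.52 for Eln, 0.65 for Fbln5 and 0.64 for Lox, and those of Mfap4, Ltbp4, Efemp2 and Loxl1 were 0.35, 0.31, 0.31 and 0.30, with a smallest adjusted p by edgeR of 0.782. Without all 3 low aortas those of Eln, Fbln5 and Lox were 0.19, 0.36 and 0.41, and the count of estimates above 0 was 3 of 10.

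Compared per length, as FPKM (counts scaled to gene length and library total) computed from the counts and the deposited gene lengths, the 10 transcripts differed widely in level. Eln led with a median of 356 FPKM over the 13 aortas (105 to 529 FPKM), was the highest of the 10 in 12 of 13 aortas and made up 24.7% to 39.9% of their summed FPKM. Ltbp4 (median 154 FPKM) and Mfap4 (148 FPKM) followed, then Fbln5 (97.1 FPKM), Lox (87.1 FPKM) and Loxl1 (81.1 FPKM). Fbn1 (33.9 FPKM), Efemp2 (23.8 FPKM) and Emilin1 (18.7 FPKM) were lower, and Fbn2 had a median of 0.0735 FPKM. Fibrillin-1 is a long transcript, so that its place by FPKM is lower than its place by CPM.

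Neighbours in this order were compared within aortas, on log2 FPKM, by two-sided exact sign-flip permutation tests adjusted over the 9 pairs. In 7 of the 9 pairs the difference passed an adjusted p of 0.05. Eln exceeded Ltbp4 by 1.76-fold (adjusted p = 0.00165, exact permutation test, higher in 12 of 13 aortas), and Loxl1 exceeded Fbn1 by 2.35-fold (adjusted p = 0.0011, exact permutation test, 13 of 13). Fbln5 and Lox did not pass (mean log2 ratio -0.047, SD 0.30, adjusted p = 0.655, exact permutation test), nor did Lox and Loxl1 (0.034, SD 0.64, adjusted p = 0.845, exact permutation test). The order of Ltbp4 over Mfap4 was weakly held, at 1.32-fold (adjusted p = 0.0408, exact permutation test, 11 of 13 aortas). It no longer passed after removal of any 1 of 10 aortas, the log2 ratio then being as low as 0.34, without Ad-sham6, against 0.40 with all. Likewise, Fbn1 over Efemp2 (1.37-fold, adjusted p = 0.0267, exact permutation test) did not pass without Ad-sham1, Ad-FAM3A3, Ad-FAM3A5 or Ad-FAM3A7, where the log2 ratio was 0.41, 0.42, 0.40 and 0.42. Efemp2 lay above Emilin1 by a log2 ratio of 0.32, but with the GENCODE vM21 lengths, an alternative chosen after seeing the data, the ratio was -0.20 and did not pass (adjusted p = 0.0719, exact permutation test), so that the order of these 2 genes depends on the annotation. With those lengths the median of Efemp2 was 16.6 FPKM and that of Fbn1 stayed at 33.9 FPKM, so the size of Fbn1 over Efemp2 also depends on the annotation. Of the 9 pairs, 6 passed with those lengths. Emilin1 was far above Fbn2 in 13 of 13 aortas.

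**Figure D2:**
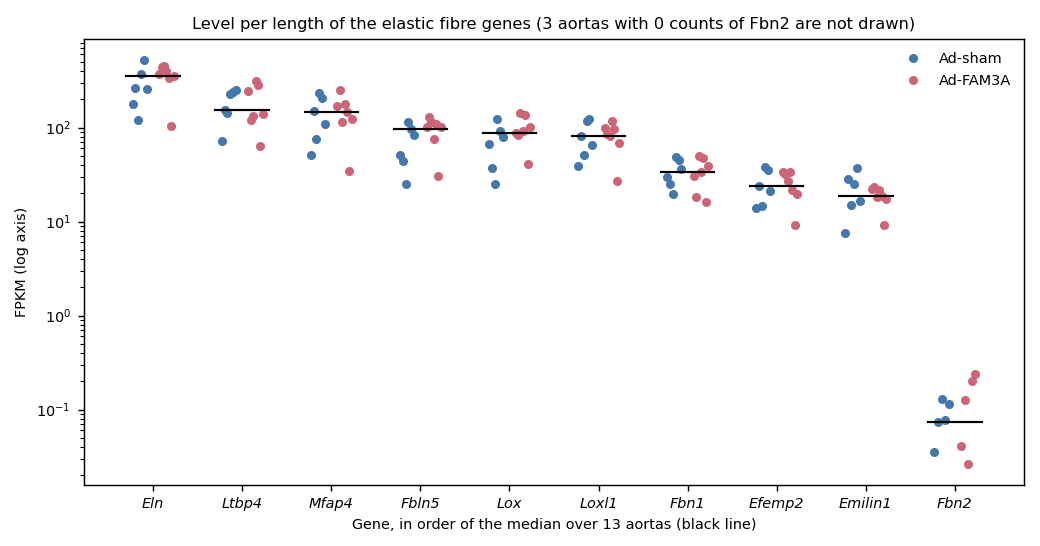
Levels per length of the 10 genes in FPKM on a log axis, with a point per aorta (blue for Ad-sham, red for Ad-FAM3A) and a black line at the median over 13 aortas. Eln stands at the top with a median of 356 FPKM and Fbn2 far below the rest at 0.0735 FPKM, and the 3 aortas with a Fbn2 count of 0 are not drawn.

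Across the 13 aortas the abundant elastic fibre genes moved together, apart from Fbn2. All 36 pairs that do not involve Fbn2 had a positive Pearson r of log2 CPM, from 0.32 to 0.95 with a median of 0.74, and all 36 were also positive within the Ad-sham and within the Ad-FAM3A aortas taken alone. Of all 45 pairs, 28 passed an adjusted p of 0.05 (permutation test with Benjamini-Hochberg adjustment over the 45 pairs), or 17 by Spearman's rho. As a background, the median r over all pairs of the 15809 gene names tested was -0.0075, with 49.28% of pairs positive and 5.523% at or above the lowest r that passed here (0.62). Over pairs of the 3149 genes at least as abundant as Efemp2, the median was 0.038, with 52.99% positive and 11.01% at or above 0.62. The points of a pair share a library, and the same low aortas enter all pairs.

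The pairs were not equally close. One tight set was Efemp2, Loxl1 and Mfap4, and Emilin1 was close to all 3 (r = 0.85, 0.89 and 0.90). Efemp2 with Loxl1 had r = 0.95 and rho = 0.91 (adjusted p = 0.000225 and 0.0012, permutation test), Efemp2 with Mfap4 had r = 0.95, and Loxl1 with Mfap4 had r = 0.95. A second was Fbln5 with Lox, with r = 0.92 and rho = 0.76 (adjusted p = 0.0003 and 0.0162, permutation test), and r = 0.82 without the 2 aortas farthest from the Fbln5 median. By Pearson's r, Fbn1 was closest to Lox (r = 0.81) and Eln to Fbln5 (r = 0.91) and Efemp2 (r = 0.90). By rank, Eln was closest to Mfap4 (rho = 0.83), with Efemp2 at 0.80 and Fbln5 at 0.70. The 2 fibulin genes whose promoters are shown above were thus closest to different lysyl oxidases, Fbln5 to Lox and Efemp2 to Loxl1, although the difference between these correlations was not tested. Fbn2 stood aside, with r from -0.45 to 0.23 and 0 of 9 pairs past the threshold.

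The common movement was smaller without the 3 low aortas. Without Ad-sham1, Ad-sham3 and Ad-FAM3A6, an alternative chosen after seeing the data, the median r of the 36 pairs was 0.26, and 28 of the 36 were positive. Over pairs of the 3149 abundant genes in the same 10 aortas the median was 0.060, with 54.39% positive. In the 10 other aortas r was 0.82 for Efemp2 with Loxl1, 0.80 for Efemp2 with Mfap4 and 0.71 for Loxl1 with Mfap4. It was 0.84 for Fbln5 with Lox and 0.67 for Fbn1 with Lox. Emilin1 was at 0.62 with Efemp2, 0.66 with Loxl1 and 0.68 with Mfap4. Eln with Fbln5 was at 0.57 and Eln with Efemp2 at 0.62. These pairs were named for their r over all 13 aortas, so the 10 aortas are not an independent check.

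**Figure D3:**
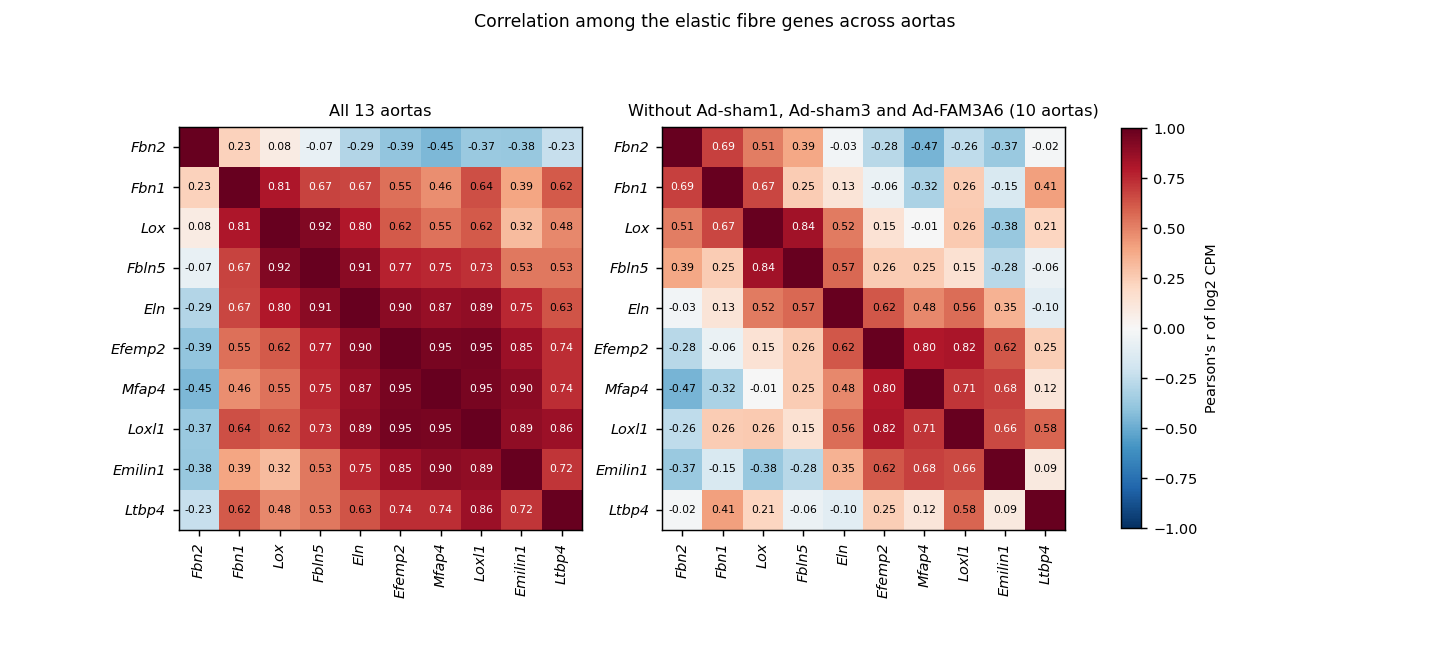
Pearson's r of log2 CPM for each pair of the 10 genes, over all 13 aortas at the left and over 10 aortas at the right, where Ad-sham1, Ad-sham3 and Ad-FAM3A6 are left out. Red is positive and blue negative on a scale from -1 to 1, and the blocks Efemp2, Mfap4 and Loxl1 and Fbln5 with Lox are red in both.

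To see which cell type markers the elastic fibre genes moved with, each was set against a smooth muscle score, a fibroblast score and a white adipocyte score, the mean log2 CPM of 10, 9 and 6 marker genes, respectively. Of the 30 relations, 11 passed an adjusted p of 0.05 by Pearson's r and 9 by Spearman's rho (permutation tests with 100000 resamples, adjusted over the 30). Smooth muscle markers went with 6 genes by r and with 5 by rho, where Eln did not pass (rho = 0.55, adjusted p = 0.119, permutation test). Of the other 15789 genes tested, 6.54% had an r with this score at least as high as the lowest that passed (0.76). The closest was Loxl1 (r = 0.92, rho = 0.85, adjusted p = 0.0006 and 0.0129, permutation test), which kept r = 0.80 without Ad-FAM3A6 and Ad-sham1, the 2 aortas farthest from the median score, and had r = 0.87 within Ad-sham and 0.97 within Ad-FAM3A. Mfap4 (r = 0.89), Efemp2 (0.86), Ltbp4 (0.86), Emilin1 (0.82) and Eln (0.76) followed, with r of 0.69, 0.68, 0.62, 0.49 and 0.51 without those 2 aortas.

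Fibroblast markers went with 5 genes, Fbn1 in front (r = 0.85, rho = 0.78, adjusted p = 0.00138 and 0.0237, permutation test), with r = 0.67 without Ad-FAM3A6 and Ad-FAM3A2, 0.85 within Ad-sham and 0.89 within Ad-FAM3A. Ltbp4 (r = 0.80), Loxl1 (0.75), Efemp2 (0.67) and Eln (0.65) also passed by r, of which only Ltbp4 passed by rho as well. Of 15790 other genes, 6.17% reached the r of Eln with this score. Single aortas decided several of these calls. Eln and Efemp2 with the fibroblast score no longer passed after removal of any 1 of 11 and any 1 of 7 aortas, with r = 0.36 for both without Ad-FAM3A6. Loxl1 (r = 0.51) and Ltbp4 (0.67) with the fibroblast score and Eln with the smooth muscle score (0.61) also did not pass without that aorta. Against the smooth muscle score Fbn1 had r = 0.45 and Lox r = 0.48, and neither passed. No gene passed by r against white adipocyte markers, where r ran from -0.60 for Lox to -0.11 for Emilin1, although Lox (rho = -0.68, adjusted p = 0.0468, permutation test) and Fbn1 (rho = -0.73, adjusted p = 0.0244, permutation test) passed by rank. The 3 aortas of high cardiac muscle markers also had the lowest smooth muscle scores (6.76, 7.13 and 7.91), so leaving them out narrows that score's range. Without them, 0 of the 30 relations passed. Loxl1 with the smooth muscle score was then at r = 0.71 and Fbn1 with the fibroblast score at r = 0.74 over 10 aortas. Without Ad-FAM3A6 alone 8 of the 30 relations passed, and without Ad-FAM3A7 alone 9.

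**Figure D4:**
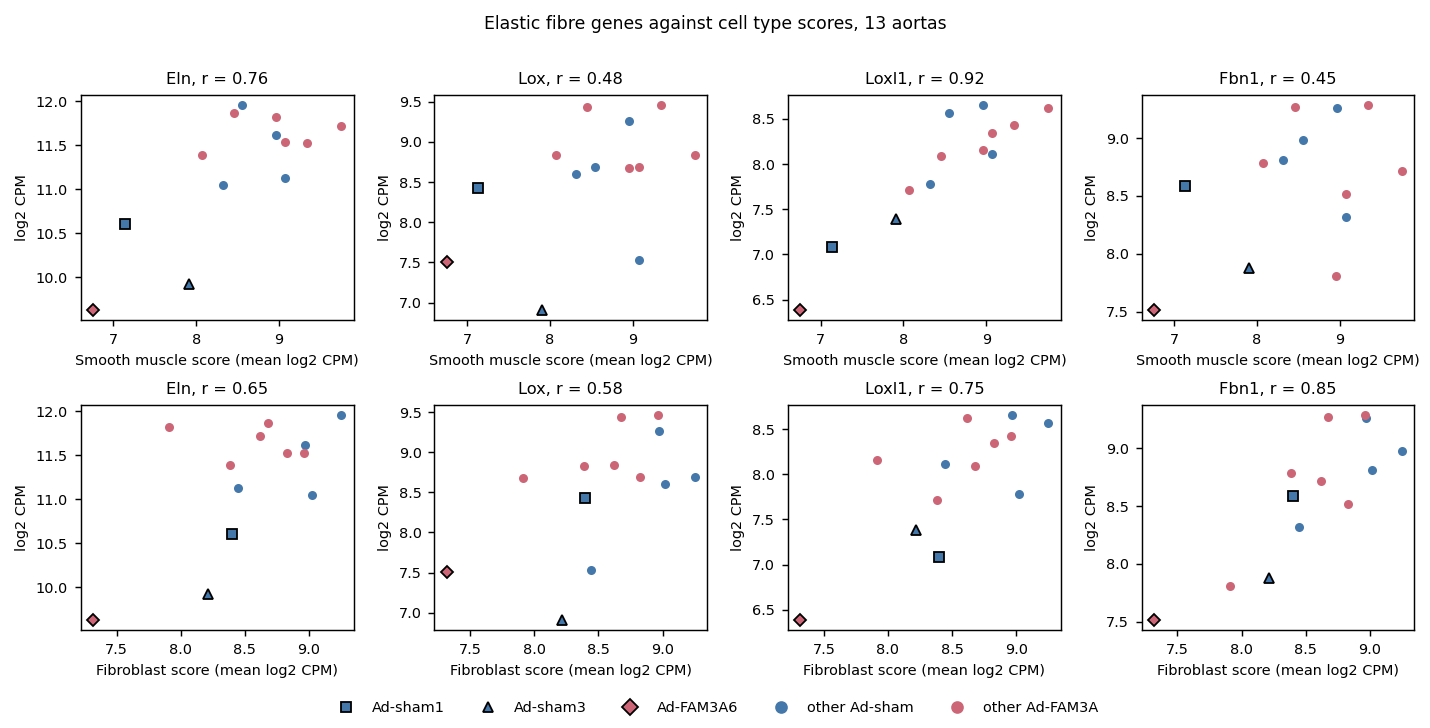
Log2 CPM of Eln, Lox, Loxl1 and Fbn1 in the 13 aortas against the smooth muscle score (top) and the fibroblast score (bottom), each the mean log2 CPM of its markers, with the 3 aortas of high cardiac muscle markers outlined in black. Loxl1 lies closest to a line with the smooth muscle score (r = 0.92) and Fbn1 with the fibroblast score (r = 0.85), and Ad-FAM3A6 is at the lower left of every panel.

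These marker lists also leaned with the virus groups. All 10 smooth muscle markers had estimates above 0 in the aortas labelled Ad-FAM3A (median log2 fold change 0.33, summed level 3428 to 14821 CPM in Ad-sham and 2615 to 21027 CPM in Ad-FAM3A), and all 9 fibroblast markers had estimates below 0 (median -0.25, 4558 to 12489 CPM and 2570 to 9158 CPM). The white adipocyte list had 6 of 6 estimates below 0 (median -0.62, 2299 to 8368 CPM and 1531 to 4840 CPM). Some other lists also had estimates of a single sign. All 6 B-cell (median log2 fold change 2.47) and all 6 T-cell markers (1.28) were above 0, yet the median summed B-cell level was lower in Ad-FAM3A (102 CPM) than in Ad-sham aortas (175 CPM), the high values being those of Ad-FAM3A6 and Ad-FAM3A7 given above. Summed T-cell markers were 390 CPM in Ad-FAM3A6 and 7.06 to 52.6 CPM in the other 6 aortas labelled Ad-FAM3A, against 179 CPM in Ad-sham4 and 11.3 to 25.4 CPM in the other 5 Ad-sham aortas, and the group medians were 15.3 and 13.8 CPM. All 4 cardiac muscle markers tested were below 0 (median -0.64), with Ad-sham1 and Ad-sham3 high and group medians of 11.6 CPM in Ad-FAM3A and 12.6 CPM in Ad-sham aortas. The tested markers of brown adipocytes (median -0.46), sympathetic neurons (-0.68), Schwann cells (-0.64) and kidney (-0.75) were also below 0. In the 3 lists scored here 0 genes were called, and the white adipocyte score was not used as a covariate. With the smooth muscle score as a covariate, the estimates of Efemp2, Loxl1, Mfap4, Ltbp4 and Fbn2 turned negative and 3 of 10 genes remained above 0, Eln at 0.087, Fbln5 at 0.27 and Lox at 0.31. With the fibroblast score as a covariate, 10 of 10 were above 0, and Lox (0.86, SE 0.27), Fbln5 (0.88, SE 0.32) and Eln (0.70, SE 0.30) had an unadjusted p under 0.05. That is 3 of 10 genes, where 10.5% of all genes tested passed under the same fit. Their adjusted p-values from edgeR were 0.387, 0.412 and 0.444, so none was called. The part of cell composition in the group estimates was otherwise not tested.

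**Figure D5:**
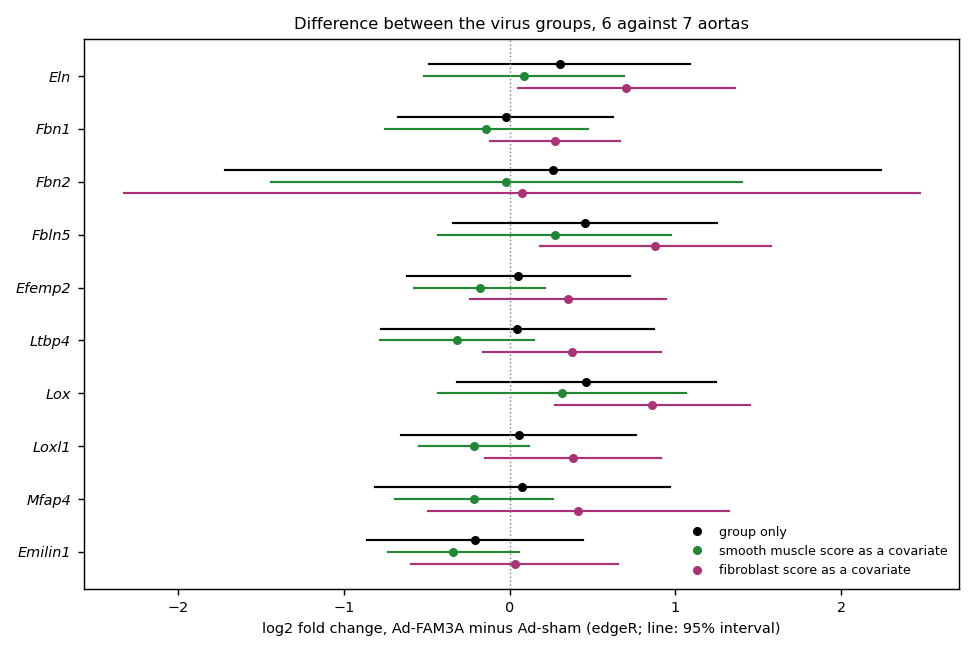
Log2 fold changes of the 10 genes, Ad-FAM3A minus Ad-sham, with 95% intervals from edgeR, for the comparison of the groups alone (black) and with the smooth muscle score (green) or the fibroblast score (purple) as a covariate. All 10 black intervals span 0, and with the fibroblast score those of Eln, Fbln5 and Lox lie above 0 without passing the adjustment over all genes.

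The 5 genes outside the set whose log2 CPM was most like that of Eln over the 13 aortas were Kdelr3 (r = 0.95), Lgi3 (0.94), Fstl1 (0.94), Nov (0.93) and Pdia5 (0.92), named as a description by a rule of highest Pearson r. Kdelr3 is a receptor that returns proteins to the endoplasmic reticulum, Pdia5 is a protein disulphide isomerase of the same compartment, and Fstl1 and Nov encode secreted glycoproteins.

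The wider elastic fibre pathway was followed in 28 further genes, all tested. They comprised other fibulins, microfibril proteins, latent TGF-beta binding proteins, lysyl oxidases, ADAMTS proteins and processing enzymes, and 16 had estimates above 0, 12 below 0, and 0 were called, with a median log2 fold change of 0.038. At an unadjusted p under 0.05 there was 1 of 28, Emilin2, against 5.91% of all genes. Emilin2, a homologue of Emilin1, averaged 39.3 ± 11.01 CPM (SD) over 6 Ad-sham and 27.4 ± 8.29 CPM over 7 Ad-FAM3A aortas, a log2 fold change of -0.52 (SE 0.23, adjusted p = 0.810, edgeR's quasi-likelihood test), and 0 of 7 aortas labelled Ad-FAM3A exceeded the Ad-sham median. The same held for Fbln1, a fibulin of the matrix and plasma, with 207 ± 75.9 and 135 ± 61.9 CPM and a log2 fold change of -0.61 (SE 0.34). The groups overlapped for both. Other lysyl oxidases were near 0 or slightly above it, with log2 fold changes of 0.10 for Loxl2, 0.29 for Loxl3 and -0.036 for Loxl4, and the most abundant gene of the list, fibronectin (Fn1), was at -0.033 (SE 0.45).

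Of 9 enzymes that degrade elastin, 7 were abundant enough to be tested, 3 with estimates above 0 and 4 below 0, and 0 were called. The gelatinase Mmp9 averaged 12.01 ± 4.86 CPM (SD) over 6 Ad-sham and 7.01 ± 4.56 CPM over 7 Ad-FAM3A aortas, with a log2 fold change of -0.77 (SE 0.38, adjusted p = 0.810, edgeR's quasi-likelihood test). The macrophage elastase Mmp12 pointed the other way, at 0.71 (SE 0.71), as did the cysteine protease Ctss, at 0.71 (SE 0.47). Ctsk was at -0.42, Mmp2 at -0.40, Prtn3 at -0.73 and Ctsl at 0.36. Mmp7 had a count of 0 in 11 of 13 aortas and Elane at most 34 counts, and neither was tested. Among 5 protease inhibitors, 2 had estimates above 0 and 3 below 0, from -0.22 for Timp1 to 0.25 for Timp3, which binds to the matrix, and 0 were called.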

How the data were processed

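Aortic RNA of 13 mice was sequenced by the authors in 150 bp reads. The authors aligned reads to GRCm38 with Hisat2 and deposited raw counts per Ensembl gene from FeatureCounts. The annotation release and strand setting are not given in the sources used here. The authors also deposited FPKM as 1 value per group, which the group means of the FPKM computed here met at 0.989 to 1.04 times for the 10 genes. Columns were mapped to samples by the labels, with 0 left unmapped. Comparing the counts of all 36 pairs of aortas within a group found no pair that could be a single library.

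Counts were normalized by TMM, filtered by filterByExpr and tested by the quasi-likelihood test of edgeR 4.0.16 (R 4.3.3) with group as the only term, in all 13 aortas, with Benjamini-Hochberg adjustment over 15811 genes. Standard errors are the size of the fold change over the square root of F. Log2 CPM used a prior count of 0.5 and FPKM a pseudocount of 0.5 counts on the log scale. Single genes were also compared by two-sided exact permutation over all 1716 assignments (smallest p 0.000583), neighbouring levels by 8192 sign flips, and correlations with 100000 resamples, in Python 3.11.15 with scipy 1.17.1. The alternatives were other factors, filters and tests (DESeq2 1.42.0, limma 3.58.1), covariates, the replicate block and left-out aortas. Leaving out Ad-sham1, Ad-sham3 and Ad-FAM3A6 together and the exon lengths of GENCODE vM21 were added after seeing the data. Scripts were tested on simulated data with 200 changed genes.

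The members, gene lists and tests were chosen with earlier results of these data known. The genes named are the 10 members, genes of the lists, Fam3a and the 5 tested genes most correlated with Eln. Lists of brown adipocyte, macrophage, T-cell, skeletal muscle, sympathetic neuron, Schwann cell, kidney and chondrocyte markers were also summed in each aorta, and 0 of their genes were called. Promoters are RefSeq windows for GRCm38.p6.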

Additional observations from a re-analysis of the deposited data

Results flagged for a closer look

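The values of the 10 genes were examined for an aorta far from the rest of its group, by Dixon's criterion at the 95% level, in the 6 Ad-sham and the 7 Ad-FAM3A aortas. Of 20 groups of values, 7 held such an aorta, where about 1 would by chance if values were normal and independent. The 10 genes are not independent of each other, and the share of all genes flagged by this rule was not counted.

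The same aorta, Ad-FAM3A6, was the low one in 6 of them. In log2 CPM, Eln was 9.63 there against 11.38 to 11.87 in the other 6 aortas of the group, and Fbln5 was 7.62 against 9.05 to 9.83. Lox was 7.51 against 8.68 to 9.46, and Loxl1 was 6.39 against 7.72 to 8.62. Mfap4 was 5.96 against 7.79 to 8.94, and Emilin1 was 5.42 against 6.31 to 6.86. This aorta had the highest summed B-cell markers (15684 CPM), the second highest cardiac muscle markers (161 CPM) and the lowest smooth muscle markers (2615 CPM) of the 13, and the part of these in its low elastic fibre levels was not tested.

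In the Ad-sham group, Fbn2 was -5.02 in Ad-sham2, which had a count of 0, against -1.23 to 0.53 in the other 5 aortas.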

How the results depend on the processing

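In every alternative run, 0 of the 10 elastic fibre genes and 0 genes of the other lists were called, and the estimates of Eln, Fbln5 and Lox stayed above 0. Over all genes DESeq2 called 3 genes, where edgeR called 0 (934 at an unadjusted p under 0.05). Leaving out 1 aorta at a time, the log2 fold change ranged from 0.14 to 0.52 for Eln, 0.28 to 0.68 for Fbln5, 0.29 to 0.71 for Lox and -0.38 to -0.024 for Emilin1. It crossed 0 for Fbn1 (-0.15 to 0.12), Fbn2 (-0.15 to 0.53), Efemp2 (-0.061 to 0.24), Loxl1 (-0.074 to 0.22), Mfap4 (-0.091 to 0.32) and Ltbp4 (-0.12 to 0.21), and the count of estimates above 0 ranged from 4 to 9 of 10. The log2 FPKM ratio of Lox over Loxl1 ranged from -0.030 to 0.13, and that of Efemp2 over Emilin1 turned to -0.20 with the exon lengths of GENCODE vM21, in which Efemp2 is longer.

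Estimates that changed sign were, with limma-voom, Fbn2 (-0.42) and Ltbp4 (-0.037), and without Ad-FAM3A6 and Ad-FAM3A7, Fbn1 (0.10) and Fbn2 (-0.91). With the smooth muscle score as a covariate they were Fbn2 (-0.020), Efemp2 (-0.18), Loxl1 (-0.22), Mfap4 (-0.21) and Ltbp4 (-0.32), and with the fibroblast score Fbn1 (0.27) and Emilin1 (0.030). Without Ad-sham1, Ad-sham3 and Ad-FAM3A6 they were Fbn2 (-0.18), Efemp2 (-0.039), Loxl1 (-0.039), Mfap4 (-0.063) and Ltbp4 (-0.036). The smooth muscle covariate and this last alternative each left 3 of 10 estimates above 0. The causes were not tested.

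Of the 30 score relations, 11 passed, 8 to 15 when 1 aorta was left out, and 0 without those 3 aortas, where fewer aortas and a narrower range of levels remain. There r changed sign for Eln and Mfap4 with the fibroblast score (-0.0077 and -0.15), for Fbn1, Fbln5 and Lox with the smooth muscle score (-0.14, -0.12 and -0.021), and for Efemp2, Mfap4 and Emilin1 with the white adipocyte score (0.14, 0.23 and 0.39). With 1 aorta left out, r crossed 0 for Fbn2 with the fibroblast score (-0.11 to 0.43) and for Mfap4 (-0.27 to 0.036) and Emilin1 (-0.32 to 0.18) with the white adipocyte score.

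The replicate numbers 1 to 6 are shared by the groups. Of the 6 same-numbered pairs, 3 had a correlation of deviations over 0.1 (range over the 6 pairs -0.34 to 0.41). Only 1 of 6 Ad-sham aortas correlated best with its own number. With 6 pairs this cannot tell whether equal numbers mark a shared batch, and the labels give only the number. The replicate block called 0 genes and turned Fbn2 to -0.56. The filter of 10 counts in every aorta removed Fbn2, whose depth limits any statement about it.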
